A study of Mus musculus with 6 samples.

Results

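A group of 9 genes that encode sialyltransferases and other glycosyltransferases was followed on microarrays through the last stages of CD8 T cell development in the mouse thymus. They are St3gal1, St3gal4, St3gal6, St6gal1, St8sia1, Gcnt1, Mgat5, Mgat4a and B4galt1. Their members on the array are all probes to which the platform annotation gives 1 of these symbols and no other, which made 21 probes among the 34945 probes with a single symbol, and 9 genes among 18193. The RNA came from thymocytes of 6 mice aged 5 to 6 weeks, matched for age and sex, that had been sorted by flow cytometry on surface CD4 and CD8. All mice carried the N15 TCR transgene (tg+/+) on an H-2b background and lacked Rag2 (RAG-2-/-), so that every group shares a single transgenic receptor and none can assemble another. There were 2 arrays for each of 3 stages: CD4+CD8+ double-positive cells (DP), CD4intCD8+ cells with intermediate surface CD4, and CD4-CD8+ single-positive cells (CD8SP). The labels speak of 2 independent experiments and do not say how the mice were divided between the arrays, so the p-values reflect array-to-array spread, which may be technical.

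Glycosyltransferases work in the Golgi and build the sugar chains of surface glycoproteins and glycolipids one residue at a time, so that the set of enzymes a cell makes shapes what lectins and receptors meet at its surface. In the thymus this change is used as a marker: immature cortical thymocytes bind peanut agglutinin through bare core 1 O-glycans, and mature medullary cells, whose core 1 chains are capped with sialic acid, do not. Branching of N-glycans by the Mgat enzymes sets how strongly T cell glycoproteins bind galectins, and in mice loss of Mgat5 lowers the threshold for T cell activation.

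The stage labels were checked against coreceptor and recombinase genes, which were tested with limma over all 10916 genes that passed a filter on dim signals. Rag1 had intensities of 1046 and 1054 (DP), 101 and 134 (CD4intCD8+), and 57.8 and 97.9 (CD8SP). Cd4 read 351 and 515 (DP), -33.0 and 11.8 (CD4intCD8+), and -65.8 and -68.6 (CD8SP), values below 0 having been deposited as such, and was under that filter. The 5 mature-stage genes Ccr7, S1pr1, Klf2, Il7r and H2-K1 were all called higher in CD8SP than in DP cells. The arrays had median intensities of 24.9 to 25.7. CD4intCD8+ replicate 2 had the highest ratio of 3' to 5' actin signal, a sign of shorter RNA, at 3.47 against 1.98 to 2.62 on the other arrays. Of the lists of markers for other cells, summed intensity was 377 to 561 in CD8SP, 322 to 367 in CD4intCD8+ and 202 to 205 in DP for 7 dendritic-cell genes, of which 3 passed the filter (the class II genes H2-Aa, H2-Ab1 and Cd74, all 3 called higher) and Itgax, Siglech, Xcr1 and Flt3 did not. It was 339 to 366 in CD8SP, 180 to 316 in CD4intCD8+ and 258 to 296 in DP for 7 B cell genes, with Cd79b called higher and Cd79a, Pax5, Ebf1 and Blnk under the filter. The sum for 8 myeloid genes was 256 to 295 in CD8SP, 246 to 287 in CD4intCD8+ and 199 to 230 in DP. Both DP arrays thus had the lowest myeloid sums. The sums for 8 epithelial, 4 erythroid and 5 natural killer genes lay between 87.5 and 183 on every array. None of the myeloid, epithelial, erythroid and natural killer genes that passed the filter was called between CD8SP and DP. The part of these cells in the results was not tested, and in sorted bulk samples fewer cells of a type and less RNA per cell cannot be told apart.

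Promoters are shown for Mgat5 and St8sia1 because they had the largest changes of the 9 and were lower at both steps without overlap between the arrays. RefSeq's table (GRCm38.p6) held promoters for 8 of the 9 genes, St3gal1 being the one not found, and for both genes shown it gave a single start. The 250 bases before the start are printed 5' to 3' on the gene's strand, chr1:127204736-127204985 (+) for Mgat5 and chr6:142964453-142964702 (-) for St8sia1, with capitals marking each GC box, the site read by Sp1-type factors.
Mgat5: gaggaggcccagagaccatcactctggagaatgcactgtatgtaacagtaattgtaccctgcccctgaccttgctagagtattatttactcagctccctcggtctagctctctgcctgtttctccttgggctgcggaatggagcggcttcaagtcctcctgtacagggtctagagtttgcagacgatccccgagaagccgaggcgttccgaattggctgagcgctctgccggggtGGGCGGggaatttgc
St8sia1: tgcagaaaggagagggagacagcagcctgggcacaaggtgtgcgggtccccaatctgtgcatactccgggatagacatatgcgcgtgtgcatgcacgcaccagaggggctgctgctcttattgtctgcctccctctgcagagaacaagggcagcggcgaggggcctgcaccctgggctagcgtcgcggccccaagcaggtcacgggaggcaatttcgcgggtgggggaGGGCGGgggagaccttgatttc
Each window held 1 GC box, searched as GGGCGG and, for the other strand, CCGCCC. The same letters occurred in 32.7% of the 32851 promoter windows of this length in the table, so the match only describes these windows.

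Between DP and CD8SP cells Mgat5 and St8sia1 fell by about 1 on the log2 scale, St6gal1 fell less, Gcnt1 rose, and the other 5 genes did not pass the test. That is 1 gene higher and 3 lower of 9, against 19.8% of all 10916 tested genes called at an adjusted p under 0.05 (11.5% higher and 8.35% lower). All 9 genes passed the filter, Gcnt1 with both DP values under the filter intensity of 30.8. Fold changes are differences of log2(intensity + 5.84), tested with limma on the brightest probe of each gene with Benjamini-Hochberg adjustment over all tested genes, and intervals are 95% intervals of these differences. The offset understates the change of dim probes. The median change of the 9 genes was 0.14 and that of all tested genes 0.01, a description of genes that were chosen with earlier results of these data known. The arrays of the 2 stages did not overlap for 6 of the 9 genes, 3 higher and 3 lower, where 61.5% of all tested genes were free of overlap (32.4% higher and 29.1% lower), so that this count was close to the background.

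**Figure D1:**
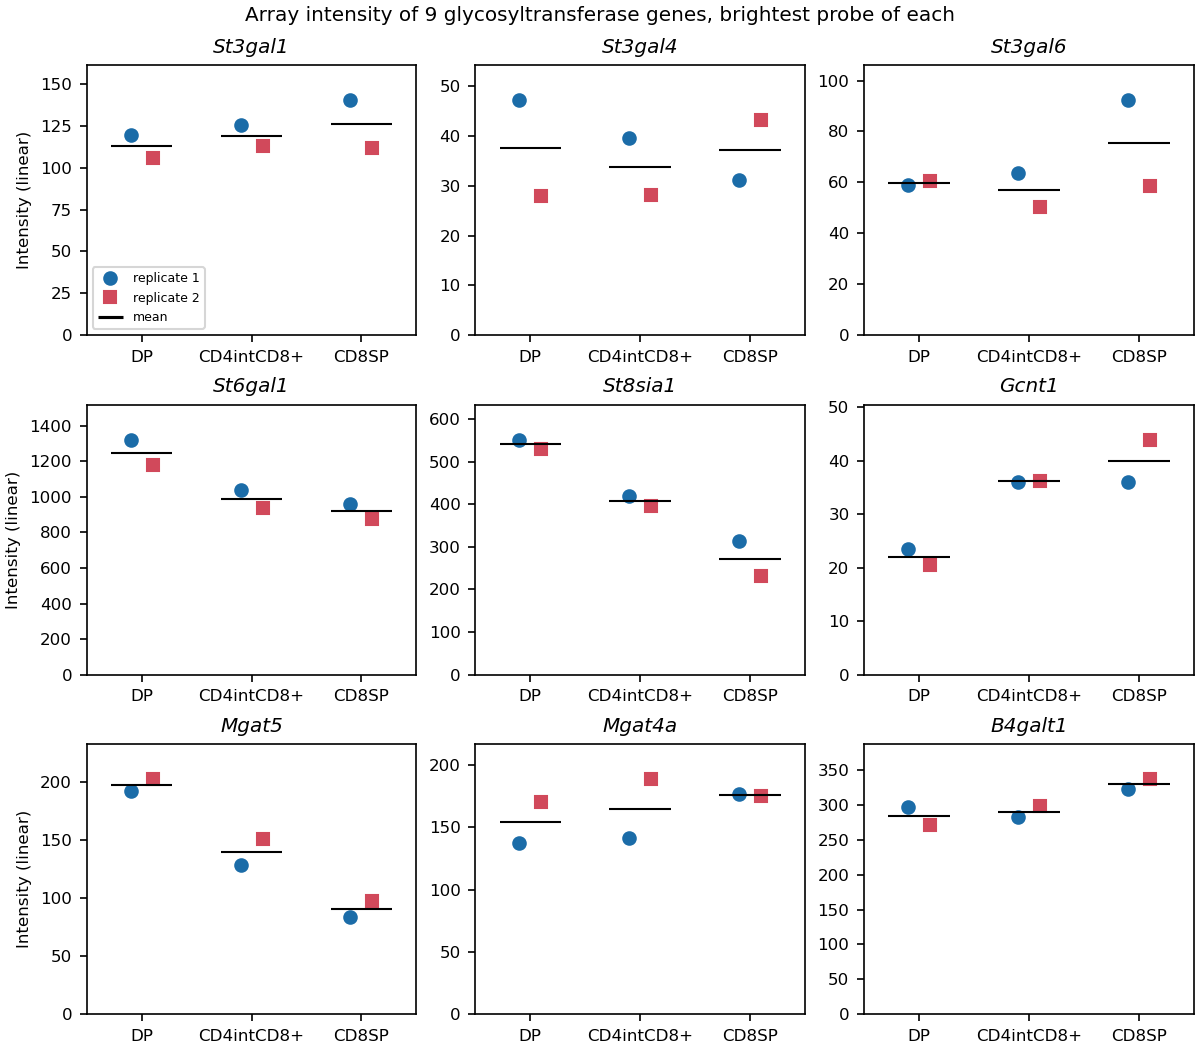
Linear array intensity (y axis, from 0 in each panel) of the brightest probe of each of the 9 genes at 3 stages (x axis, 2 arrays each). Circles are replicate 1, squares replicate 2 and bars the mean. Mgat5 and St8sia1 step down at each stage without overlap, St6gal1 is highest on both DP arrays and Gcnt1 lowest there. Levels in different panels come from different probes and cannot be compared.

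Mgat5 encodes the N-acetylglucosaminyltransferase that starts one of the outer branches of complex N-glycans. Its probe 1428643_at read 192 and 202 (DP), 128 and 151 (CD4intCD8+), and 83.6 and 97.3 (CD8SP). The 3 stages were thus fully separated, DP highest and CD8SP lowest. Mean intensity was 90.5 ± 9.69 in CD8SP and 197 ± 6.96 in DP cells (SD, n = 2 each), a log2 change of -1.08 ± 0.15 (SE; limma adjusted p = 0.00173, interval -1.42 to -0.73). Of all tested genes, 1.71% had a more negative change. The call was kept under all 16 other settings tried, with adjusted p between 0.000183 and 0.0391. A second probe, 1428644_at, read 153 and 139 (DP), 100 and 125 (CD4intCD8+), and 85.8 and 109 (CD8SP). It lay lower on both CD8SP arrays than on both DP arrays, but its CD4intCD8+ and CD8SP values overlapped. In the fit over 20967 probes, in which 13.9% were called, 6.21% lower, its difference from DP to CD8SP was -0.57 ± 0.18 (limma adjusted p = 0.0659, and 0.0243 with the replicate number as a block). The third probe, 1425744_a_at, stayed at or below 13.1 on all arrays and under the filter.

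St8sia1 encodes GD3 synthase, which adds a second sialic acid to the ganglioside GM3. All 3 of its probes were called lower in CD8SP than in DP cells. The brightest, 1455695_at, read 551 and 531 (DP), 420 and 397 (CD4intCD8+), and 314 and 230 (CD8SP), again 3 separate levels. Its mean was 272 ± 58.8 in CD8SP and 541 ± 14.3 in DP (SD, n = 2 each), and the log2 change -0.99 ± 0.16 (SE; limma adjusted p = 0.00291, interval -1.35 to -0.64). This call too was kept under the 16 other settings, with adjusted p between 0.000226 and 0.0285. Probe 1419695_at read 118 and 105 (DP), 86.4 and 83.3 (CD4intCD8+), and 56.4 and 56.5 (CD8SP), and changed by -0.91 ± 0.16 (limma adjusted p = 0.0057 over all probes, and 0.0548 without DP replicate 1). Probe 1419694_at read 67.9 and 50.8 (DP), 32.4 and 17.1 (CD4intCD8+), and 25.4 and 20.3 (CD8SP). It changed by -1.18 ± 0.29 (limma adjusted p = 0.0256), a call lost without DP replicate 1 (0.185), DP replicate 2 (0.0772) or CD8SP replicate 2 (0.122) and with the actin ratio in the model (0.0554). The 3 probes share their RNA and are not replicates.

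St6gal1 encodes the enzyme that caps the galactose ends of N-glycans with sialic acid. Probe 1420928_at read 1319 and 1178 (DP), 1039 and 935 (CD4intCD8+), and 958 and 877 (CD8SP). Both DP values lay above the other 4, while CD4intCD8+ and CD8SP overlapped. The mean was 918 ± 57.7 in CD8SP and 1249 ± 99.8 in DP (SD, n = 2 each), a log2 change of -0.44 ± 0.11 (SE; limma adjusted p = 0.0237, interval -0.69 to -0.19). The call was lost without DP replicate 1 (0.142), DP replicate 2 (0.0518) or CD8SP replicate 2 (0.135), with the actin ratio in the model (0.0574), with no trend of variance on intensity (0.0753) and with the mean of its probes (-0.70, 0.0961). Its other probe, 1420927_at, stayed at or below 27.5 and under the filter.

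Gcnt1 encodes the core 2 enzyme, which branches core 1 O-glycans and competes with sialic acid capping for the same chains. Its probe 1449538_a_at was dim, at 23.5 and 20.4 (DP), 36.1 and 36.2 (CD4intCD8+), and 36.0 and 43.9 (CD8SP). Every later array lay above both DP arrays. Both DP values lay under the filter intensity of 30.8, and the mean log2 value of 5.23 was just over the cutoff of 5.19. Gcnt1 was thus tested only through the later stages, where it was higher, and the size of its change depends on the offset. The log2 change from DP to CD8SP was 0.72 ± 0.22 (SE; limma adjusted p = 0.0471, interval 0.23 to 1.21). This call was close to the threshold. It was lost without any 1 of the 6 arrays (adjusted p from 0.0555 to 0.225), without the filter on dim genes (0.0730), with only the 4 arrays compared (0.0609), with the actin covariate (0.102), and in the fit over all probes (0.0558). With an offset of 32 the change was 0.41. The second probe, 1460431_at, lay between 0.813 and 14.3 on all arrays and under the filter.

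The 3 genes of the St3gal family, whose enzymes place sialic acid on galactose in another linkage than St6gal1, did not pass the test in any comparison. St3gal1, which caps core 1 O-glycans and whose loss in mice leaves mature CD8 T cells binding peanut agglutinin, read 120 and 106 (DP), 125 and 113 (CD4intCD8+), and 140 and 112 (CD8SP). The stages overlapped, and the change from DP to CD8SP was 0.14 ± 0.16 (limma adjusted p = 0.582), with an interval from -0.22 to 0.51. A second St3gal1 probe, 1441216_at, was dim and under the filter, at 14.0 and 6.62 (DP), 14.7 and 18.5 (CD4intCD8+), and 22.6 and 18.5 (CD8SP). Fitted without the filter, its difference from DP to CD8SP was 0.74 ± 0.33 (limma adjusted p = 0.247), so that the 2 probes gave different sizes and neither was called.

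St3gal4, which caps N-acetyllactosamine ends, had a single probe at 47.2 and 27.9 (DP), 39.7 and 28.1 (CD4intCD8+), and 31.2 and 43.2 (CD8SP). The spread within each stage was as large as any difference between stages (CD8SP against DP 0.01 ± 0.28, limma adjusted p = 0.984, interval -0.63 to 0.65). St3gal6, with the same kind of acceptor, had 5 probes, 3 of which passed the filter. Its brightest, 1449078_at, read 58.9 and 60.5 (DP), 63.8 and 50.3 (CD4intCD8+), and 92.2 and 58.7 (CD8SP), so that only CD8SP replicate 1 stood apart. The changes from DP to CD8SP of the 3 probes were 0.28 ± 0.23, -0.26 ± 0.20 and 0.26 ± 0.24, with limma adjusted p between 0.435 and 0.520 over all probes. The negative one belongs to 1447841_x_at, a probe type that can bind other transcripts. Whether any of the 3 probes did so was not tested. The probes thus disagreed in sign and none was called.

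Mgat4a, which starts a different branch of N-glycans from Mgat5, read 137 and 170 (DP), 142 and 188 (CD4intCD8+), and 176 and 175 (CD8SP) on probe 1435641_at. The CD8SP arrays lay above both DP arrays, by less than the spread within the earlier stages (0.19 ± 0.18, limma adjusted p = 0.486, interval -0.20 to 0.59). Its dim probe 1444347_at pointed the other way, at 15.8 and 16.4 in CD8SP and 19.7 and 19.1 in DP. B4galt1, which adds the galactose that the sialyltransferases then cap, read 298 and 271 (DP), 283 and 298 (CD4intCD8+), and 323 and 337 (CD8SP). Both CD8SP arrays were the highest of the 6, and the change from DP was 0.21 ± 0.13 (limma adjusted p = 0.288, interval -0.08 to 0.50).

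**Figure D2:**
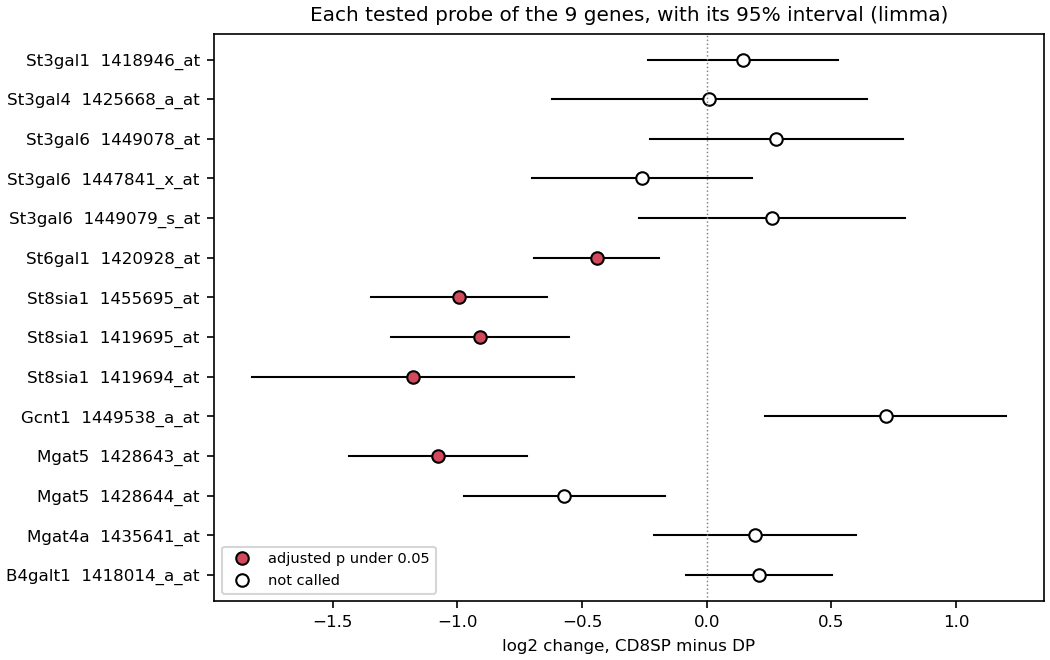
Log2 change from DP to CD8SP (x axis) of the 14 probes that passed the filter, named by gene and probe (y axis), with 95% intervals from limma. Filled points have an adjusted p under 0.05 over 20967 probes. All 3 St8sia1 probes, 1 of 2 Mgat5 probes and the St6gal1 probe were called lower, and the 3 St3gal6 probes lie on both sides of 0.

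By step, none of the 9 genes was called in the fit by stage alone, which leaves out the pairing by replicate number. From DP to CD4intCD8+ cells, where 11.7% of all tested genes were called (6.86% higher and 4.84% lower), limma called 0 of 9, while 4 had an unadjusted p under 0.05. Mgat5 differed by -0.48 ± 0.15 (adjusted p = 0.0708), St6gal1 by -0.34 ± 0.11 (0.0811), St8sia1 by -0.40 ± 0.16 (0.128) and Gcnt1 by 0.60 ± 0.22 (0.105). These were also the genes whose arrays did not overlap at this step, 4 of 9 against 58.7% of all genes (30.8% higher and 27.9% lower). With the replicate number as a block, 3 of the 9 were called lower: St6gal1 (limma adjusted p = 0.0148), Mgat5 (0.0221) and St8sia1 (0.0402). Of their other probes, Mgat5 1428644_at (-0.37 ± 0.18, limma adjusted p = 0.244) and St8sia1 1419695_at (-0.37 ± 0.16, 0.193) were called in no setting, the block included. On probes, St8sia1 1419694_at was called lower (-1.13 ± 0.29, limma adjusted p = 0.0461, where 7.45% of probes were called, 3.2% lower), a call kept in 7 of 14 other settings. It was lost without DP replicate 1 (0.269), DP replicate 2 (0.125) or CD4intCD8+ replicate 2 (0.227), with a smaller offset (0.0507), with the actin covariate (-0.46, 0.624), with no trend of variance on intensity (0.0773) and when dim probes were kept (0.0713). The remaining 5 genes lay between -0.11 and 0.09.

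From CD4intCD8+ to CD8SP cells limma called 0 of the 9 genes and 0.119% of all genes (0.101% higher and 0.0183% lower), while 2 of the 9 had an unadjusted p under 0.05. These were Mgat5 (-0.59 ± 0.15, adjusted p = 0.211) and St8sia1 (-0.59 ± 0.16, adjusted p = 0.228), both of which were called with the replicate number as a block (0.0460 and 0.0383). Their other tested probes were called at this step in no setting, the block included. In the fit over all probes they differed by -0.20 ± 0.18 (Mgat5 1428644_at, limma adjusted p = 0.848), -0.54 ± 0.16 (St8sia1 1419695_at, 0.344) and -0.05 ± 0.29 (St8sia1 1419694_at, 0.985). Of all tested genes, 1.29% had a more negative change than Mgat5 at this step and 1.36% than St8sia1. The arrays did not overlap for these genes and for B4galt1 (0.18 ± 0.13, adjusted p = 0.722), 3 of 9 against 38.8% of all genes (20.2% higher and 18.6% lower). For St6gal1 (-0.10 ± 0.11) and Gcnt1 (0.12 ± 0.22) the CD4intCD8+ and CD8SP arrays overlapped. A lower level at both steps without overlap was seen in 2 of the 9 genes and in 5.95% of all tested genes. Both steps share the CD4intCD8+ arrays and sum to the whole span, so their values are given side by side and were not compared.

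**Figure D3:**
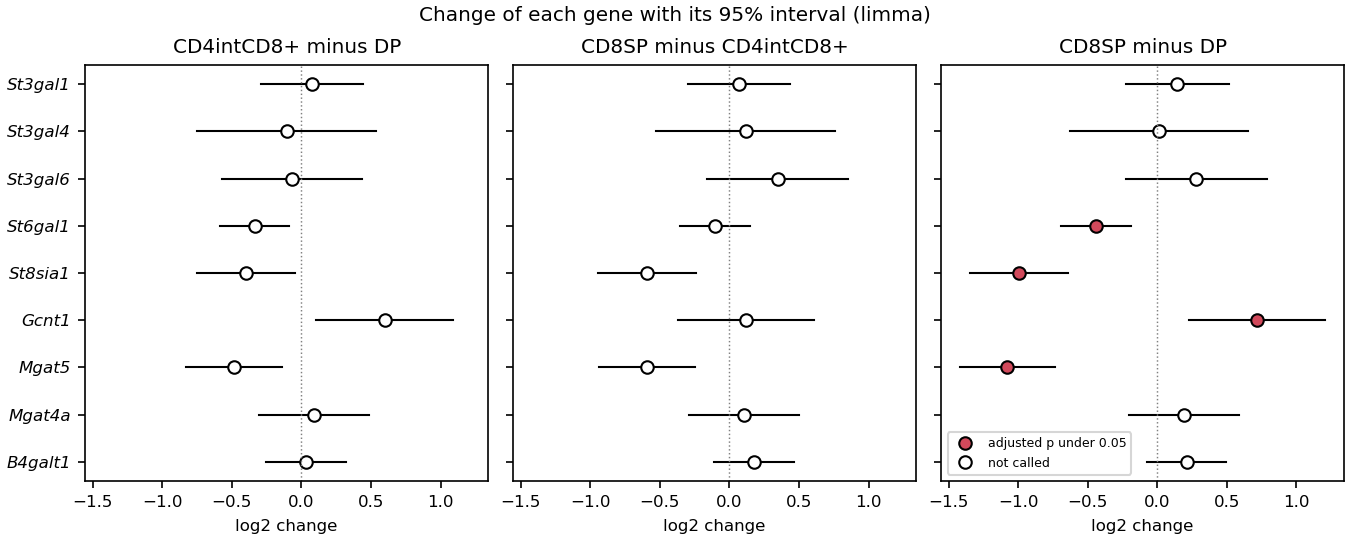
Log2 change (x axis) of the 9 genes (y axis) with 95% intervals from limma, for CD4intCD8+ minus DP, CD8SP minus CD4intCD8+ and CD8SP minus DP. Filled points have an adjusted p under 0.05 over 10916 genes. Calls appear only in the right panel, for St6gal1, St8sia1, Gcnt1 and Mgat5. Mgat5 and St8sia1 lie left of 0 in all panels.

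Over the 6 arrays, Mgat5 and St8sia1 had a Pearson correlation of 0.885 of their log2 values, and Gcnt1 ran against both (-0.837 with Mgat5 and -0.877 with St8sia1). This was not particular to the pair. St6gal1 had 0.889 with St8sia1, 0.79 with Mgat5 and -0.905 with Gcnt1, and B4galt1 had -0.864 with St8sia1 and -0.791 with Mgat5. St3gal1 and St3gal6 had 0.826 with each other. These values describe 6 arrays that share stage differences and scaling. Among the 10915 other tested genes, the closest in pattern to Mgat5 were Marcksl1 (0.998), Rab14 (0.996) and Cep19 (0.996), and the closest to St8sia1 were Sox4 (0.997), a transcription factor, Myl12a (0.994) and Kcnmb4 (0.994). For Gcnt1 they were Gpr107 (0.996), Ydjc (0.995) and Pde8a (0.995). These are the highest of 10915 values over 6 arrays. For the 5 members that were not called, the closest gene reached 0.977 (St3gal6) to 0.995 (Mgat4a). Such values thus do not set the named genes apart as partners. A match in shape is not one in size: Rab14 differed by -0.31 from DP to CD8SP and Myl12a by -0.17, against -1.08 for Mgat5 and -0.99 for St8sia1, whereas Sox4 fell by 1.26.

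Of the 15 other sialyltransferase genes 9 were tested, of which 1 was lower in CD8SP than in DP cells, 0 were higher and 8 were not called (median change 0.25, all genes 0.01), a share lower that is near the 8.35% of all tested genes. The one that fell was St3gal2, which sialylates core 1 O-glycans and gangliosides. It read 116 and 104 (DP), 53.6 and 52.7 (CD4intCD8+), and 21.9 and 21.7 (CD8SP). Its change from DP to CD8SP was -2.07 ± 0.17 (limma adjusted p = 0.000163), and from DP to CD4intCD8+ -0.97 ± 0.17 (0.0108), a first-step call lost without DP replicate 1 (0.0946) or 2 (0.0661), with the actin covariate (0.09) and with the mean of its probes (0.0787). Both CD8SP values of St3gal2 lay under the filter intensity of 30.8, so the size of its change depends on the offset. From DP to CD8SP it was -1.40 (limma adjusted p = 0.000152) with an offset of 32 and -1.62 (0.00185) with the mean of its probes. The change of -2.07 compares with -1.08 for Mgat5 and -0.99 for St8sia1, and the difference between the genes was not tested.

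Genes of ganglioside synthesis, the pathway in which St8sia1 acts, moved both ways, with 3 of 6 tested genes higher in CD8SP and 1, St3gal2, lower, against 11.5% higher and 8.35% lower of all tested genes (median 0.67, all genes 0.01). B4galnt1, the synthase of GM2 and GD2, which uses GM3 and the product of St8sia1, read 948 and 765 in CD8SP and 307 and 267 in DP. Its change was 1.55 ± 0.19 (limma adjusted p = 0.000871), and 0.73 (0.0149) with the mean of its probes. B4galt5, a lactosylceramide synthase, read 91.2 and 127 in CD8SP and 27.4 and 29.8 in DP, a change of 1.72 ± 0.22 (0.000974), and 0.90 (0.0326) with the mean of its probes. Its DP values lay under the filter intensity of 30.8, so the size of its change depends on the offset, and an offset of 32 gave 1.21. Ugcg, which makes glucosylceramide, the first step, was higher by 0.93 ± 0.19 (0.00933). St3gal5, the synthase of GM3, lay under the filter at 28.8 and 32.2 in CD8SP and 20.0 and 29.7 in DP. From DP to CD4intCD8+ the same counts were found, 3 higher and 1 lower. At that step 0 of the 6 were called without DP replicate 1 or without DP replicate 2.

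For O-glycans, 1 of 11 tested initiating and core genes was lower in CD8SP than in DP and 0 were higher (median 0.0041), again near the 8.35% of all tested genes called lower. Galnt4, one of the enzymes that start O-glycans, read 25.3 and 26.9 in CD8SP and 86.0 and 92.8 in DP (-1.58 ± 0.18, limma adjusted p = 0.000597). Its CD8SP values lay under the filter intensity of 30.8, and an offset of 32 gave -1.06. C1galt1, the core 1 synthase that supplies Gcnt1 and St3gal1, was chosen after its values were seen and was not called (-0.40 ± 0.15, adjusted p = 0.0854). With the replicate block 2 genes of this list were higher and 3 lower. For N-glycans, 1 of 12 processing and branching genes was lower: Mgat1, which adds the first N-acetylglucosamine that every later branch needs, read 117 and 155 in CD8SP and 199 and 226 in DP (-0.63 ± 0.17, limma adjusted p = 0.0279). That call was lost without DP replicate 1, DP replicate 2 or CD8SP replicate 1 (adjusted p up to 0.154). The median of this list was -0.06, and its share of genes called lower was near the same background.

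Among 11 tested galactose and poly-N-acetyllactosamine genes, 1 was higher in CD8SP than in DP (B4galt5), near the background share, and 1 lower, B3gnt5, the starter of lacto-series glycolipids (-0.90 ± 0.26, limma adjusted p = 0.0396). The B3gnt5 call was lost without DP replicate 2 (0.259), CD8SP replicate 1 (0.147) or CD8SP replicate 2 (0.0725), when dim genes were kept (0.0565) and with the mean of its probes (-0.41, 0.232), and an offset of 32 gave -0.54. The median was 0.20. Of 6 tested fucosyltransferase and Fringe genes 2 rose and 0 fell (median 0.26), where 11.5% of all tested genes were higher. Lfng and Mfng, whose products add N-acetylglucosamine to Notch receptors, were those 2. Mfng read 240 and 234 in CD8SP and 103 and 102 in DP (1.16 ± 0.13, limma adjusted p = 0.00062). Lfng read 97.3 and 75.8 in CD8SP and 10.9 and 5.09 in DP, the last near the offset, on which the size of its change depends (2.76, limma adjusted p = 0.000582, and 1.56 with an offset of 32). It fell under the filter with a smaller offset, with the stricter filter and with the mean of all probes.

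In the list of sialic acid supply, transport and removal, 2 of 12 tested genes rose from DP to CD8SP and 1 fell (median 0.11), against 11.5% higher and 8.35% lower of all tested genes. Cmah, which converts the sialic acid Neu5Ac to Neu5Gc before transfer, read 145 and 148 in CD8SP and 61.8 and 42.1 in DP (1.42 ± 0.24, limma adjusted p = 0.00392), and the mean of its probes gave 0.79 (0.0312). Slc35a3, a Golgi carrier of the N-acetylglucosamine donor used by the Mgat enzymes, rose by 0.58 ± 0.15 (0.0248). That call was lost without any 1 of the DP and CD8SP arrays (up to 0.138), and by the mean of its probes the change was 0.06 (0.868). Slc35d1, another nucleotide sugar carrier, fell by 0.94 on the log2 scale (0.00689, and 0.0518 without DP replicate 2). Of 13 tested carriers and lectins 2 rose and 4 fell (median -0.22), against the same shares of all tested genes. Among those that fell were Cd8a (-0.98 ± 0.18, limma adjusted p = 0.00678) and Cd8b1 (-0.69 ± 0.13, 0.00705), whose O-glycans St3gal1 modifies in the mouse. Both of these calls were lost without DP replicate 2 (0.0599 for Cd8a and 0.0577 for Cd8b1). Selplg, the P-selectin ligand, which needs core 2 branches to bind, read 1178 and 1155 in CD8SP and 692 and 747 in DP (0.69 ± 0.14, 0.00806, and 0.0606 without DP replicate 1). At the first step, from DP to CD4intCD8+, 6.86% of all tested genes were higher and 4.84% lower. Among the carriers and lectins 1 gene was higher and 3 were lower, and among the fucosyltransferases and Fringe genes 2 were higher and 0 lower. In the list of sialic acid supply, transport and removal 1 was higher and 1 lower. These were the nucleotide sugar carriers Slc35a3 (0.53, and -0.051 with the mean of its probes) and Slc35d1 (-0.68). The Slc35a3 call was kept in 4 of 16 other settings. Among the galactose genes 1 was higher, among the initiating and core O-glycan genes 1 was lower, and of the N-glycan genes 0 were called. Without DP replicate 2, 0 genes of the 8 lists were called at this step, and without DP replicate 1 the calls were 2 carriers and lectins (lower) and 1 gene of the fucosyltransferase and Fringe list (higher). From CD4intCD8+ to CD8SP 0 genes of the 8 lists were called in the fit by stage alone. With the replicate block 4 of the 8 lists had 1 gene each called higher there, and 2 had 1 called lower.

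**Figure D4:**
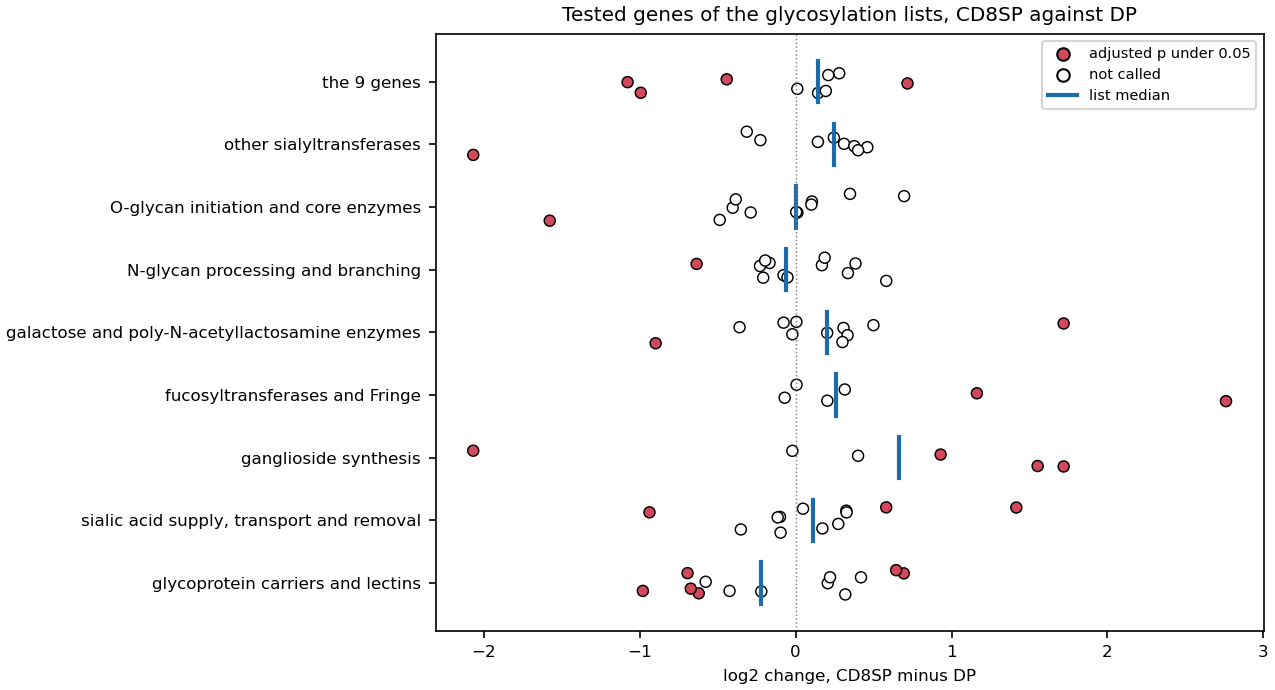
Log2 change from DP to CD8SP (x axis) of the tested genes of the 9-gene set and of 8 lists of related genes (y axis), with points jittered in height. Filled points have an adjusted p under 0.05, and the blue bars are list medians. St3gal2 and Galnt4 lie at -2.07 and -1.58 and Lfng, B4galt5 and B4galnt1 on the right side. St3gal2, St8sia5, B4galt5 and B4galt6 belong to more than 1 list.

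**Figure D5:**
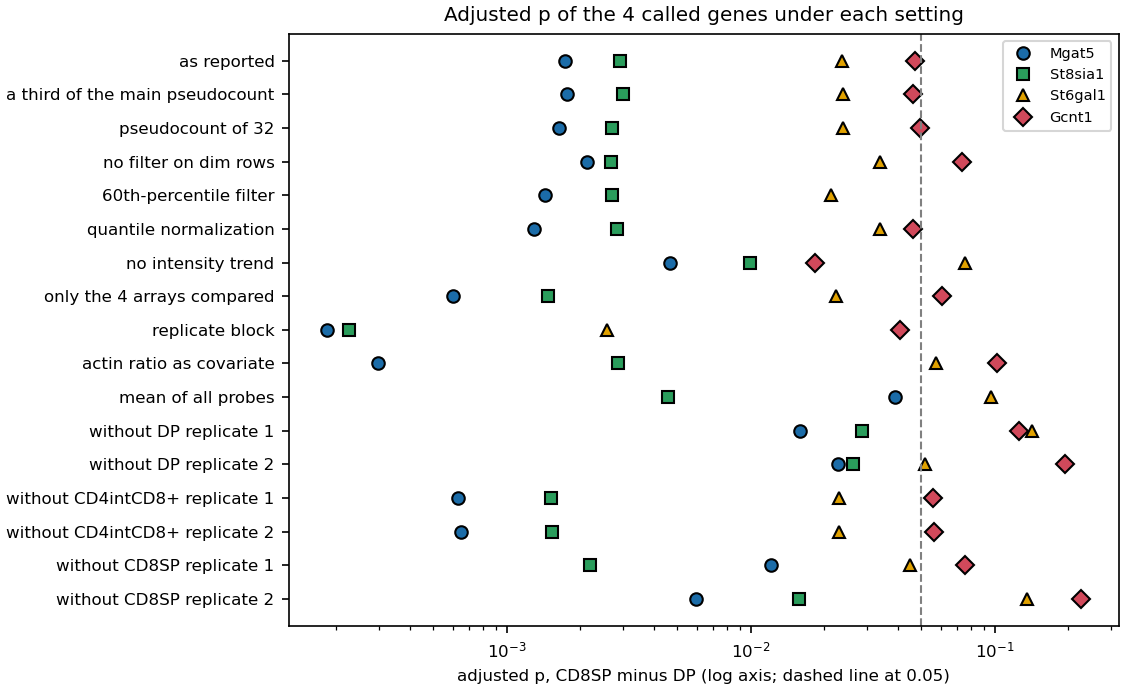
Adjusted p for CD8SP minus DP (x axis, log scale) of Mgat5, St8sia1, St6gal1 and Gcnt1 under the reported fit and each other setting (y axis). The dashed line marks 0.05. Mgat5 and St8sia1 stay left of it in every row, St6gal1 crosses it in 6 and Gcnt1 in 9, and Gcnt1 has no point for 2 settings in which it was under the filter.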

How the data were processed

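Values were taken as deposited by the authors, a linear intensity for each probe on each array. The authors' scaling and background method are not given in the sources used here. In the deposited intensities 3.60% of values of non-control probes lay below 0, so a background had been subtracted, and the array medians were alike. The number of arrays limits precision.

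Probes with 1 gene symbol in the platform annotation were kept (34945 of 45037, with 932 of several symbols and 9160 of none). Negative values were replaced by 0. The deposited intensities were then put on the log2 scale after adding an offset of 5.84, the 10th percentile of positive values. Each gene was represented by its brightest probe, and genes under the 40th percentile (intensity 30.8) were left out, which kept 10916 of 18193. Probes were also fitted singly (20967 of them over 20.3). All 6 arrays were fitted with limma 3.58.1 (R 4.3.3, lmFit, eBayes with intensity trend) with stage as the only term and 3 residual and 6.05 prior degrees of freedom, and an adjusted p under 0.05 (Benjamini-Hochberg) was called. The fit was tested on simulated data. Values after ± are SE of log2 changes unless marked SD.

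The 9 genes, 8 lists of related genes and 8 marker lists were chosen with earlier results of these data known. Besides the 9 genes, up to 3 called genes per list with the largest change and, for 3 of the 9, the 3 most correlated genes are named. Ugcg, St3gal5, C1galt1 and the check of marker genes fall outside this rule and were chosen after their values were seen. The replicate numbers were taken to pair the samples: the labels name 2 experiments, and same-numbered arrays deviated together from the stage means (correlations across genes of 0.26, 0.30 and 0.21). The reported fit does not use this pairing, and blocked values are given where they change a call.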

Additional observations from a re-analysis of the deposited data

How the results depend on the processing

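With 2 arrays a stage, calls near the threshold depended on single arrays. From DP to CD8SP, Mgat5 and St8sia1 were called in 16 of 16 other settings, St6gal1 in 10 of 16 and Gcnt1 in 5 of 14. Of the other settings' results for the 9 genes and their probes, 572 kept direction and stayed called or stayed uncalled. Most of these 572 were not called in either fit, so they do not measure how firm the calls were. A call was lost in 27, which can only be results called as reported, and gained in 8. The sign changed in 35, none of which had been called. Except where a value or the setting's construction (fewer arrays) shows it, the cause was not tested.

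For CD4intCD8+ against DP, 1277 genes were called, against 801 without the intensity trend, 2562 with the replicate block, 407 with the actin ratio as covariate, 764 with the mean of all probes and 187 (without DP replicate 2) to 1399 when an array was left out, with 317 without DP replicate 1 and 473 without CD4intCD8+ replicate 2. For probes the 1563 calls became 494 without the trend, 3647 with the block, 380 with the actin ratio and 157 to 1745 without an array. For CD8SP against CD4intCD8+, 13 genes were called, against 8 with the stricter filter, 8 with only the 4 arrays compared, 227 with the block, 34 with the actin ratio, 2 with the mean of all probes and 6 to 70 (without CD4intCD8+ replicate 1) without an array. The 18 probe calls became 0 without the trend, 275 with the block, 32 with the actin ratio and 9 to 65 without an array. For CD8SP against DP, 2166 genes were called, against 3277 with the block and 1018 to 2345 without an array (1044 and 1018 without DP replicates 1 and 2, and 1087 without CD8SP replicate 2). The 2920 probe calls became 4901 with the block and 1266 to 3118 without an array. Of the 9 genes, the replicate block called 3 at the first step and 2 at the second. From DP to CD8SP 4 were called, 2 with the actin ratio, 2 with the mean of all probes and 2 to 3 without an array. The block changed no other call of the 9 genes.

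Signs changed with the actin ratio at the first step for St3gal4 (0.19), St3gal6 (0.32), Mgat4a (-0.24) and B4galt1 (-0.021), and at the second for St3gal1 (-0.037), St3gal4 (-0.028) and St3gal6 probe 1447841_x_at (-0.023). With the mean of all probes they changed for Mgat4a at the second step (-0.084), for St3gal6 (-0.19) and Mgat4a (-0.0036) from DP to CD8SP, and for Slc35a3 at the first step (-0.051). Leaving out an array moved the first-step change between -0.0057 and 0.16 for St3gal1, -0.43 and 0.22 for St3gal4, -0.22 and 0.089 for St3gal6, -0.11 and 0.29 for Mgat4a, -0.036 and 0.096 for B4galt1, and -0.44 and 0.12 for St3gal6 probe 1449079_s_at. At the second step it moved between -0.089 and 0.23 for St3gal1, -0.094 and 0.33 for St3gal4, -0.0050 and 0.24 for Gcnt1, -0.096 and 0.30 for Mgat4a, -0.42 and 0.32 for St8sia1 probe 1419694_at, and -0.049 and 0.19 for St3gal6 probe 1447841_x_at. From DP to CD8SP the ranges were -0.013 to 0.30 for St3gal1, -0.31 to 0.34 for St3gal4, -0.021 to 0.58 for St3gal6 and -0.018 to 0.54 for its probe 1449079_s_at.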
